A study of Schizosaccharomyces pombe with 16 samples.

Results

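The 10 genes described here encode enzymes of the tricarboxylic acid (TCA) cycle in the fission yeast Schizosaccharomyces pombe: cit1, aco1, idh1, idh2, kgd1, kgd2, dld1, sdh1, sdh2 and fum1. They were chosen by name from the pathway, with earlier results of these data known, and are 10 of 7014 genes in the count table. 9 were found by symbol. kgd1, which the table lists under its systematic ID SPBC3H7.03c, was found by its RefSeq locus tag. The product description in the table names a TCA cycle enzyme for each of them. All 10 passed the filter on low counts, which left 6170 genes to be tested.

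Total mRNA and polysome fractions (mRNA carrying several ribosomes, separated on sucrose gradients) were sequenced from WT cells (strain 972 h-) and from eIF2α.S52A cells. In the mutant the serine that eIF2 kinases phosphorylate is replaced by alanine, and the strain carries a Ura4 marker and ura4-D18 and is also h-. Both strains grew in rich YES medium at 30 °C and were taken in exponential phase (0 h) and 6 h later, at early entry into stationary phase. Each of the 8 groups held 2 libraries, numbered by experiment, for 16 in all. The comparisons ask how the messages of each strain changed with time, in abundance and on polysomes, and whether the strains differed.

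The libraries held 11279417 to 20522997 counts (median 15287672), and the members 610 to 22684 counts each per library. Counting alone gives a relative SD of 4.05% at the lowest of these, and covers counting error only. The 10 members together made up 0.352% to 0.730% of the counts of a total mRNA library and 0.138% to 0.435% of a polysome library. CPM below are counts per 1000000 after scaling by edgeR's TMM factors, which were 1.33 to 1.69 in total libraries and 0.434 to 0.949 in polysome libraries. A CPM is a share of a library, so fewer cells and less RNA per cell cannot be told apart. A serine-to-alanine change leaves no trace in a count table, so the strain labels were not checked by that change. The strains also differ in their ura4 genotype, and counts of ura4 were not examined here.

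The TCA cycle runs in the mitochondrial matrix and oxidises acetyl groups to carbon dioxide, handing electrons to the respiratory chain. Citrate synthase joins acetyl-CoA to oxaloacetate, aconitase isomerises citrate, and NAD-dependent isocitrate dehydrogenase and the 2-oxoglutarate dehydrogenase complex carry out the oxidative decarboxylations. Succinate dehydrogenase, which is also complex II of the respiratory chain, and fumarase then lead towards malate. Fission yeast ferments glucose by preference and represses much of its respiratory metabolism while glucose is plentiful. The cycle also supplies carbon skeletons for amino acids, 2-oxoglutarate for glutamate among them.

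In WT total mRNA at 0 h the members differed in level. Per kilobase of coding sequence, sdh2 stood at 295.9 ± 46.3 CPM (mean ± SD, n = 2) and sdh1 at 290.3 ± 65.2, and their replicates overlapped. aco1 followed at 221.4 ± 7.23, cit1 at 170.2 ± 21.8 and dld1 at 153.1 ± 26.1, and the replicates of cit1 and dld1 overlapped. idh1 (125.7 ± 18.7), idh2 (116.8 ± 20.5) and kgd2 (114.8 ± 0.569) overlapped with each other, and idh1 also overlapped with dld1. fum1 stood at 93.2 ± 4.34 and kgd1 lowest at 61.5 ± 0.452 CPM per coding kilobase. The annotated kgd1 transcript has a leader of 1675 bases, and per kilobase of whole transcript kgd1 was again the lowest of the 10, at 36.3 ± 0.267 CPM.

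**Figure D1:**
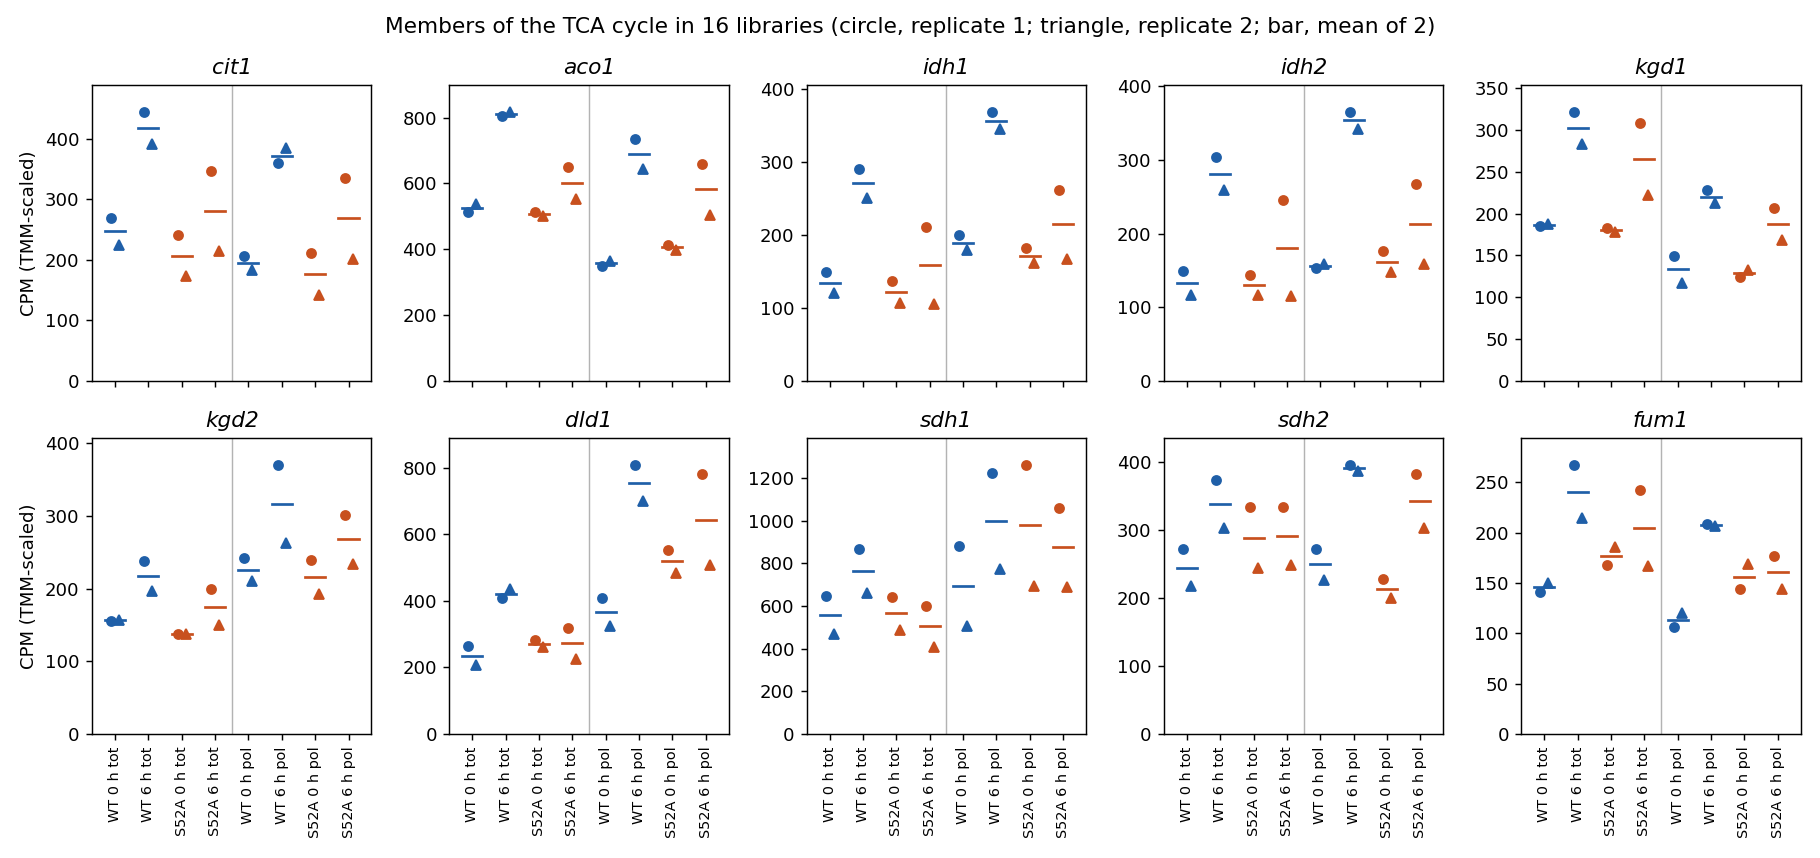
CPM of the 10 members (y axes, each from 0, TMM-scaled) in the 8 groups (x axis; tot, total mRNA; pol, polysomes). Points are single libraries and bars the mean of 2. In WT total mRNA both 6 h libraries lie above both 0 h libraries in all 10 panels.

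In WT cells 5 of the 10 members rose on polysomes from 0 h to 6 h: aco1, idh2, kgd1, dld1 and fum1. Their estimates ran from 1.65-fold to 2.27-fold. The other 5 also had estimates above 0 but did not pass the test. The members' median log2 fold change was 0.89, beside -0.01 over all genes tested. Across all genes, 8.57% were called higher in this comparison (edgeR's quasi-likelihood F-test, Benjamini-Hochberg adjusted p under 0.05 over 6170 genes).

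aco1, the aconitase gene, stood at 348.8 and 365.3 CPM in the WT polysome libraries at 0 h and at 733.6 and 644.2 at 6 h. The 6 h libraries lay well clear of the 0 h ones, and the log2 fold change was 0.95 ± 0.19 (SE), with an edgeR adjusted p of 0.00803. idh2, which encodes one subunit of NAD-dependent isocitrate dehydrogenase, went from 152.6 and 158.5 CPM to 365.0 and 342.2. Its change was the largest of the 10, at 1.18 ± 0.33 on the log2 scale with an edgeR adjusted p of 0.0296. On the opposite strand rmn1 overlaps 23.9% of the annotated idh2 transcript, and it stood at 101.5 CPM at 0 h and 90.8 at 6 h on WT polysomes (-0.16 ± 0.16 on the log2 scale, edgeR adjusted p = 0.516). idh1, the other subunit, went from 200.2 and 179.1 CPM to 368.7 and 344.7, again without overlap. Its log2 fold change of 0.91 ± 0.31 missed the threshold (adjusted p = 0.0585, edgeR). As for every gene here, that SE uses the spread over all groups of the model, those of eIF2α.S52A cells included.

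dld1 encodes dihydrolipoamide dehydrogenase, the E3 component that the 2-oxoglutarate and pyruvate dehydrogenase complexes share. It stood at 407.8 and 323.8 CPM at 0 h and 808.8 and 699.6 at 6 h on WT polysomes, a log2 fold change of 1.04 ± 0.25 (adjusted p = 0.0176, edgeR). Both 6 h values were above both 0 h values. kgd1 (E1 of 2-oxoglutarate dehydrogenase) went from 149.7 and 117.2 CPM to 227.9 and 212.3, a log2 fold change of 0.72 ± 0.20 (adjusted p = 0.0306, edgeR). SPBC3H7.02, whose transcript shares 77 bases (1.5%) of the kgd1 transcript on the opposite strand, rose there by 2.54 ± 0.26 on the log2 scale (adjusted p = 0.000593, edgeR). kgd2, the E2 of the same complex, went from 242.4 and 209.7 CPM to 369.9 and 262.5, and its 0.48 ± 0.23 did not pass (adjusted p = 0.165, edgeR). On the opposite strand 80.7% of the annotated kgd2 transcript overlaps plh1, which stood at 40.2 CPM at 0 h and 43.9 at 6 h on WT polysomes, and reads were assigned to genes by strand.

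fum1, the fumarase gene, went from 106.1 and 120.3 CPM to 208.6 and 206.1 on WT polysomes. The 2 libraries of each time point lay close together, and the log2 fold change was 0.87 ± 0.21 (adjusted p = 0.0176, edgeR). cit1, citrate synthase, went from 206.6 and 183.3 CPM to 359.1 and 384.2. Its libraries did not overlap either, but its 0.93 ± 0.31 gave an edgeR adjusted p of 0.0542. sdh2, the iron-sulphur subunit of succinate dehydrogenase, moved from 272.1 and 227.3 to 396.1 and 387.1 CPM, a log2 fold change of 0.65 ± 0.24 (adjusted p = 0.0776, edgeR).

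sdh1, the flavoprotein subunit, was the one member whose libraries overlapped on WT polysomes: 881.8 and 506.1 CPM at 0 h against 1223.8 and 776.2 at 6 h. Replicate 1 was above replicate 2 for this gene in all 8 groups. The log2 fold change was 0.53 ± 0.39 (adjusted p = 0.366, edgeR), and with the replicate number as a block in the model the adjusted p was 0.0440, in a range of 0.0364 to 0.850 over the settings tried. With that block 9 members were called, all but kgd2, where 13.5% of all genes were called higher. Both 6 h libraries exceeded both 0 h libraries for 9 of the 10 members and for 28.1% of all genes tested.

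The count of 5 rested on all 4 libraries. Without replicate 1 at 0 h no member was called, and without replicate 2 at 0 h, replicate 1 at 6 h or replicate 2 at 6 h 1 was called each time, aco1, although all 10 estimates stayed above 0. Scaling by library size alone, which moved the median of all genes by 0.51 on the log2 scale, called all 10 and raised the share of all calls that were higher from 49.1% to 89.6%; the members' median stood 0.90 above that of all genes under either scaling.

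In WT total mRNA 4 members rose: aco1, kgd1, dld1 and fum1. Each of them also rose on polysomes. The 10 estimates were all above 0, with a median of 0.71 beside -0.01 over all genes tested, and 6% of all genes were called higher. Both 6 h libraries exceeded both 0 h libraries for all 10 members, as for 33.5% of all genes.

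aco1 went from 512.7 and 536.9 CPM at 0 h to 806.0 and 817.2 at 6 h in WT total mRNA, with the replicates close together at each time. Its log2 fold change was 0.63 ± 0.19 (adjusted p = 0.0478, edgeR). fum1 went from 140.8 and 150.4 to 267.2 and 214.3 CPM, a change of 0.73 ± 0.21 (adjusted p = 0.0452, edgeR), and kgd1 from 185.4 and 187.3 to 321.4 and 283.0, a change of 0.70 ± 0.20 (adjusted p = 0.0442, edgeR). dld1 passed narrowly, from 263.4 and 206.8 CPM to 408.7 and 435.8 (0.84 ± 0.25, adjusted p = 0.0498, edgeR). The 4 adjusted p-values thus lay just under the threshold.

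Just above it were the isocitrate dehydrogenase subunits, which had the largest estimates of the 10. idh1 went from 148.8 and 120.5 CPM to 290.5 and 251.1 in WT total mRNA (1.01 ± 0.31 on the log2 scale, edgeR adjusted p = 0.0515), and idh2 from 149.7 and 116.6 to 304.2 and 258.5 (1.08 ± 0.33, edgeR adjusted p = 0.0524). cit1 (0.76 ± 0.30), kgd2 (0.48 ± 0.23), sdh2 (0.47 ± 0.24) and sdh1 (0.45 ± 0.39) had edgeR adjusted p-values from 0.121 to 0.486.

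The count in WT total mRNA turned on the model. With the replicate block 7 members were called, the 4 above with cit1, idh1 and idh2, where 11% of all genes were called higher. With RLE scaling none was called, without the filter 1, kgd1, and without any single one of the 4 WT total libraries none, with all 10 estimates above 0 each time. With library size alone 7 were called, and the share of all calls that were higher went from 49.9% to 75.5%.

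**Figure D2:**
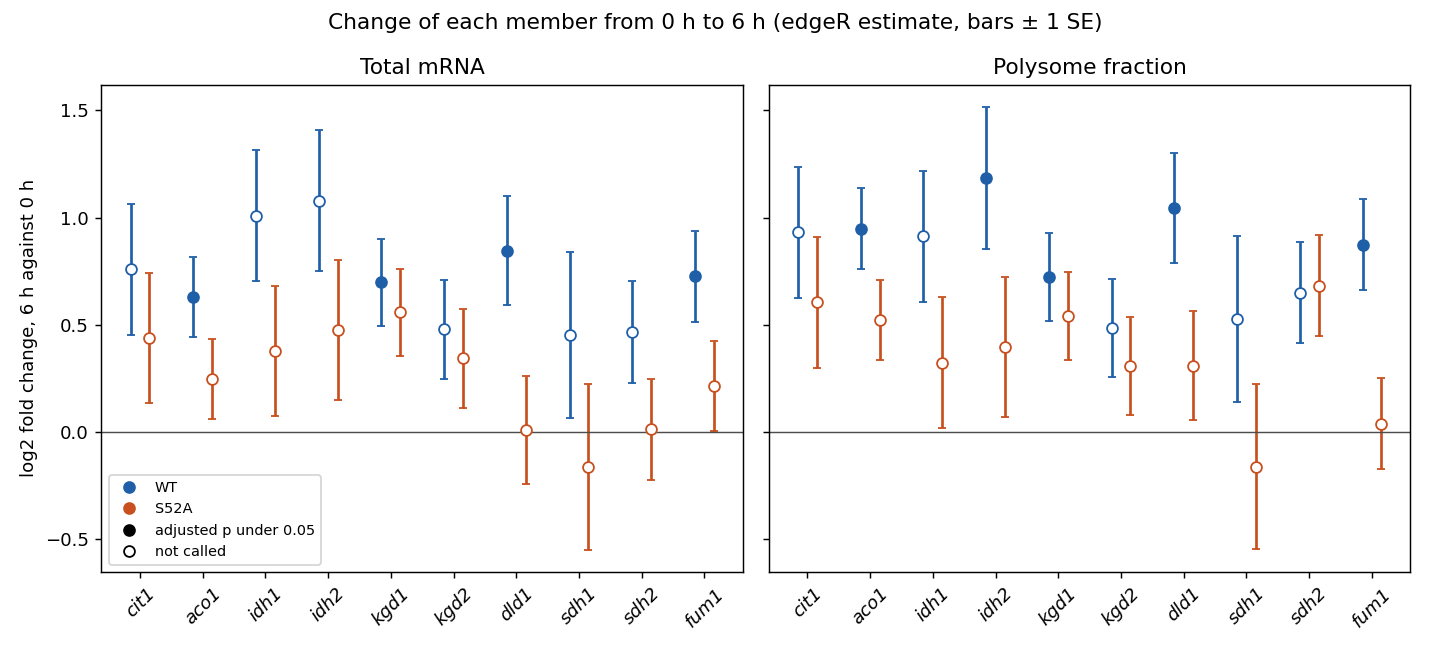
Log2 fold change from 0 h to 6 h (y axis, edgeR estimate with bars of ± 1 SE) for the 10 members (x axis) in total mRNA (left) and on polysomes (right), WT in blue and eIF2α.S52A in orange. Filled points passed adjusted p under 0.05. There are 4 on the left and 5 on the right, all WT.

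In eIF2α.S52A cells no member was called in either fraction. On polysomes 9 of 10 estimates were above 0, with a median of 0.36 beside 0.00 over all genes, and the range ran from -0.16 for sdh1 to 0.68 for sdh2. Across all genes 3.4% were called higher. In total mRNA 9 of 10 were above 0, with a median of 0.29 beside -0.04, and 2.12% of all genes were called higher, which was 74% of all calls there and 88.5% with library size alone. At an unadjusted p under 0.05 there were 3 members on polysomes (aco1, kgd1 and sdh2) and 1 in total mRNA (kgd1) by edgeR, and DESeq2 called 1 on polysomes (aco1) and none in total mRNA.

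The 2 experiments of the mutant differed. In replicate 1 the members' median change was 0.56 on polysomes and 0.53 in total mRNA on the log2 CPM scale, while in replicate 2 it was 0.19 and 0.01. In WT the same medians were 0.84 and 0.84 on polysomes and 0.69 and 0.60 in total mRNA. Over all genes tested these medians lay between -0.06 and 0.02 in every strain, fraction and replicate. Without replicate 2 of the eIF2α.S52A 6 h polysome libraries the members' median was 0.65 and 1 member was called, aco1. Without replicate 1 of that group it was 0.05 with none called. In total mRNA the median was 0.49 without replicate 2 at 6 h and -0.12 without replicate 1, with no member called either way.

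idh1 and idh2 are examples of this split. In eIF2α.S52A total mRNA idh1 stood at 137.2 CPM at 0 h and 211.2 at 6 h in replicate 1, and at 107.0 and 105.6 in replicate 2. idh2 stood at 143.4 and 245.3 CPM in replicate 1 and at 116.0 and 115.1 in replicate 2. Both 6 h libraries exceeded both 0 h libraries in total mRNA for 3 of the 10 members, aco1, kgd1 and kgd2, beside 24.1% of all genes tested. On polysomes this held for 3 members, aco1, kgd1 and sdh2, beside 21.1% of all genes.

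aco1 on eIF2α.S52A polysomes went from 412.6 and 398.5 CPM to 660.2 and 505.1, a log2 fold change of 0.52 ± 0.19 (adjusted p = 0.109, edgeR). sdh2 there went from 228.3 and 199.8 CPM to 383.1 and 303.7 (0.68 ± 0.24, edgeR adjusted p = 0.101), and with the replicate block its adjusted p was 0.0216, in a range of 0.00386 to 0.444 over the settings tried. It was the 1 member called by that model, where 6.74% of all genes were called higher. In total mRNA of the same cells sdh2 stood at 334.5 and 243.8 CPM at 0 h and 334.4 and 248.4 at 6 h, close together within each replicate. kgd1 had the lowest edgeR adjusted p of the members in total mRNA (0.172), going from 182.7 and 177.6 CPM to 308.0 and 222.3. With library size alone 8 members were called on eIF2α.S52A polysomes, where the median of all genes moved by 0.59 and the share of all calls that were higher went from 48.7% to 96.6%.

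**Figure D3:**
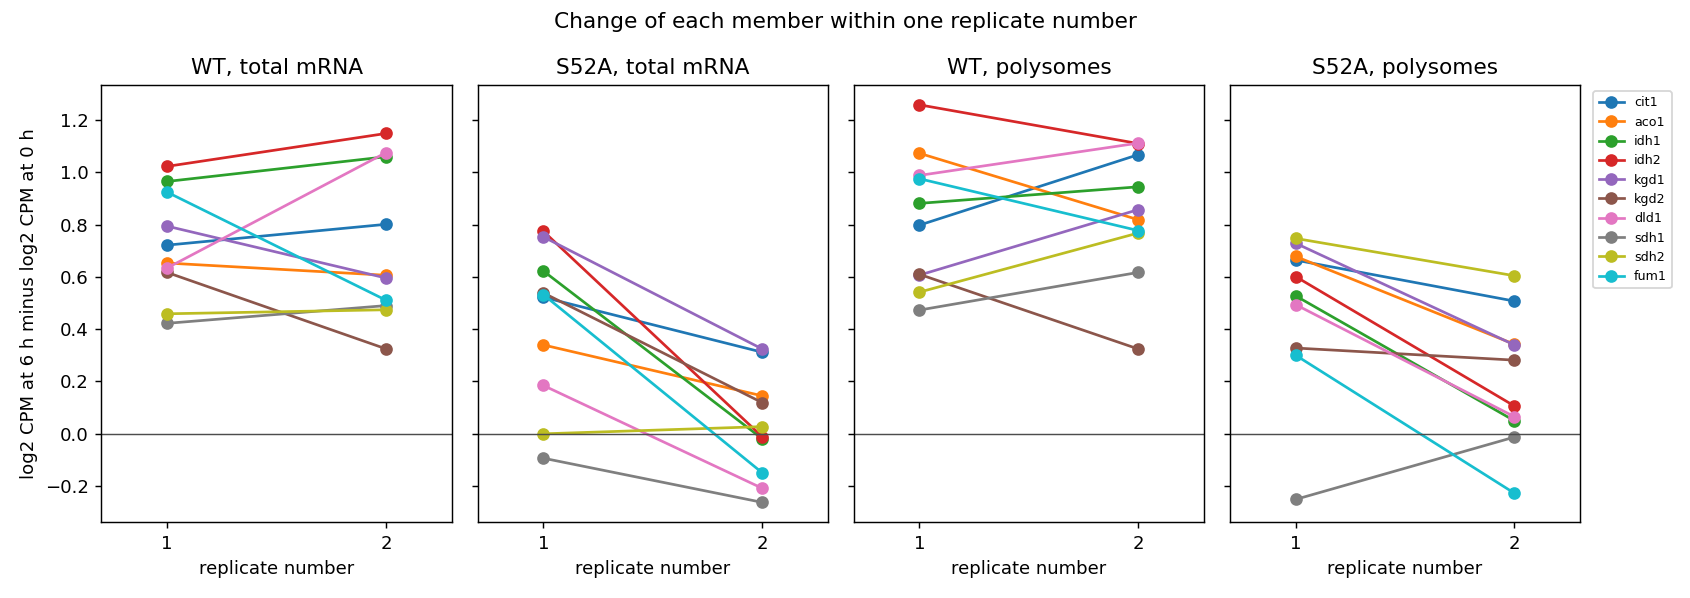
Change of each member from 0 h to 6 h (y axis, difference of log2 CPM) within replicate 1 and within replicate 2 (x axis), in 4 panels by strain and fraction, with a line for each gene. The WT panels have all points above 0, and in the eIF2α.S52A panels most genes have their higher point in replicate 1. The medians of replicate 2 are 0.01 in total mRNA and 0.19 on polysomes.

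Whether the change with time differed between the strains was tested by an interaction term. In total mRNA all 10 estimates of the change in eIF2α.S52A minus that in WT were below 0, with a median of -0.48 beside -0.01 over all genes, and on polysomes 9 of 10 were below 0, with a median of -0.51 beside 0.02. None was called in either fraction, as 0% of all genes were. 1 member had an unadjusted p under 0.05 in each fraction by edgeR: fum1 on polysomes (-0.83 ± 0.30, edgeR adjusted p = 0.848) and dld1 in total mRNA (-0.84 ± 0.36, edgeR adjusted p = 0.999). DESeq2 called none. Leaving out 1 library at a time, the median ran from -0.84 to -0.27 on polysomes and from -0.75 to -0.24 in total mRNA. It moved by over 1.5 times without eIF2α.S52A 6 h replicate 1 (-0.84 on polysomes, -0.75 in total mRNA), without replicate 2 of that group (-0.27 and -0.24) and, on polysomes, without eIF2α.S52A 0 h replicate 1 (-0.31). The comparisons between strains at one time, given next, use the same libraries.

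Taken directly between strains at 6 h, all 10 members had lower estimates in eIF2α.S52A cells in both fractions. The median was -0.24 on polysomes and -0.50 in total mRNA, beside 0.00 and -0.03 over all genes. None was called, where 0.924% of all genes were called in either direction on polysomes and 0.519% in total mRNA. In total mRNA idh1 stood at 290.5 and 251.1 CPM in WT and 211.2 and 105.6 in eIF2α.S52A cells at 6 h, without overlap, a log2 difference of -0.77 ± 0.31 (unadjusted p = 0.0260 and adjusted p = 0.312, edgeR). aco1 at 806.0 and 817.2 CPM in WT was above the mutant's 649.9 and 552.3 (-0.43 ± 0.19, edgeR adjusted p = 0.355), and dld1 at 408.7 and 435.8 was above 319.5 and 225.6 (-0.63 ± 0.25, edgeR adjusted p = 0.322). On polysomes at 6 h idh1 differed by -0.73 ± 0.31 and idh2 by -0.73 ± 0.33, with edgeR adjusted p-values of 0.213 and 0.248. These 3 in total mRNA and 2 on polysomes were the members with an unadjusted edgeR p under 0.05, and DESeq2 called none.

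At 0 h the members' estimates lay on both sides of 0. The median difference between eIF2α.S52A and WT cells was 0.00 on polysomes and -0.04 in total mRNA, and none was called, where 0% and 0.0162% of all genes were. 1 member had an unadjusted p under 0.05 on polysomes by edgeR. This was fum1, at 143.7 and 168.8 CPM in the mutant and 106.1 and 120.3 in WT (0.47 ± 0.21, edgeR adjusted p = 0.556). No member had one in total mRNA, and DESeq2 called none in either fraction.

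Polysome CPM over total CPM is called translational efficiency (TE) here, and its log2 value is read within one replicate number. dld1 had values from 0.63 to 1.29 over the 8 pairs of libraries. kgd2 (0.42 to 0.81), idh1 (0.31 to 0.66), sdh1 (0.11 to 0.97) and idh2 (0.03 to 0.46) were also above 0 in every pair. kgd1 was below 0 in every pair, from -0.68 to -0.31, and so were cit1 (-0.38 to -0.03) and fum1 (-0.45 to -0.06). aco1 (-0.56 to 0.02) and sdh2 (-0.55 to 0.36) lay on both sides of 0. The median of all genes lay between -0.08 and -0.03 in each strain, time and replicate. The place of 0 was set by the TMM factors, 1.33 to 1.69 in total and 0.434 to 0.949 in polysome libraries. Above or below 0 is therefore relative to the other genes under this scaling. These TE levels were not computed with library size alone. Subunits of one complex thus lay on opposite sides: dld1 and kgd2 above 0, and kgd1 below.

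**Figure D4:**
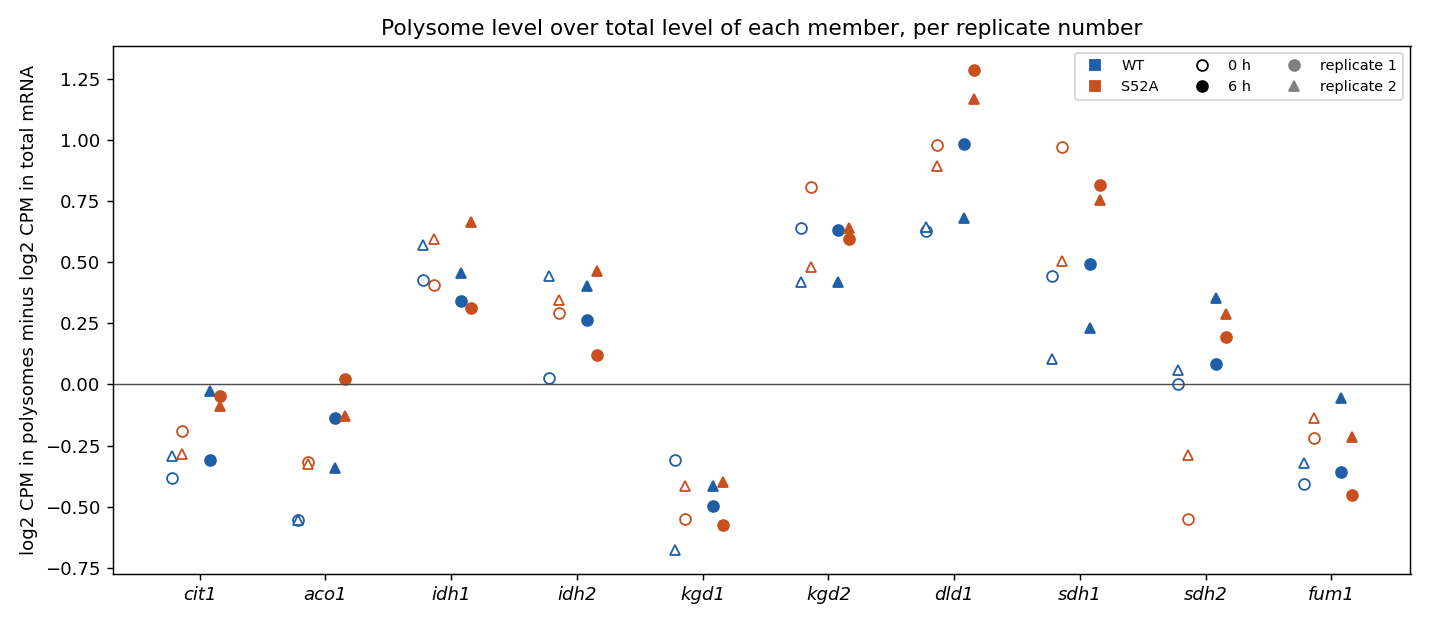
Polysome level over total level (y axis, difference of log2 CPM) for the 10 members (x axis) in each replicate number, WT in blue and eIF2α.S52A in orange, 0 h open and 6 h filled. dld1 lies between 0.63 and 1.29, and kgd1 lies between -0.68 and -0.31.

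No member's TE change with time was called in either strain. In WT the median was 0.13 beside 0.02 over all genes, with 9 of 10 above 0 and a range from -0.10 (idh1) to 0.32 (aco1). In eIF2α.S52A cells it was -0.01 beside 0.01, with 5 of 10 above 0 and a range from -0.18 (fum1) to 0.67 (sdh2). The share of all genes called higher was 0% in WT and 0% in the mutant, and the strain difference of the TE change, with a member median of -0.04, was called for no member and 0% of all genes. By edgeR none of the 10 had an unadjusted p under 0.05 in these 3 comparisons, and DESeq2 called none. sdh2 in eIF2α.S52A cells had the lowest unadjusted p of the 3 (0.0672): its TE went from -0.55 to 0.20 in replicate 1 and from -0.29 to 0.29 in replicate 2.

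Ratios of subunit counts within one library need no scaling between libraries. They are not corrected for length, so a ratio of 1 does not mean equal message levels. The coding sequences have 3030 bases in kgd1 and 1359 in kgd2. They have 1926 in sdh1 and 828 in sdh2, and 1071 in idh1 and 1140 in idh2. The idh1 to idh2 ratio, for 2 subunits of one enzyme, stayed between 0.861 and 1.31 over the 16 libraries. The kgd1 to kgd2 ratio was 1.19 to 1.55 in the 8 total mRNA libraries and 0.520 to 0.809 in the 8 polysome libraries, with no overlap between fractions. The sdh1 to sdh2 ratio ran from 1.65 to 5.53, and its highest values, 5.53 and 3.48, were the eIF2α.S52A polysomes at 0 h. Over all 16 libraries the log2 CPM of idh1 and idh2 had a Pearson r of 0.97, the highest of the member pairs, and kgd1 and sdh1 the lowest at -0.02. These are descriptions over libraries that share strains, times and fractions.

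**Figure D5:**
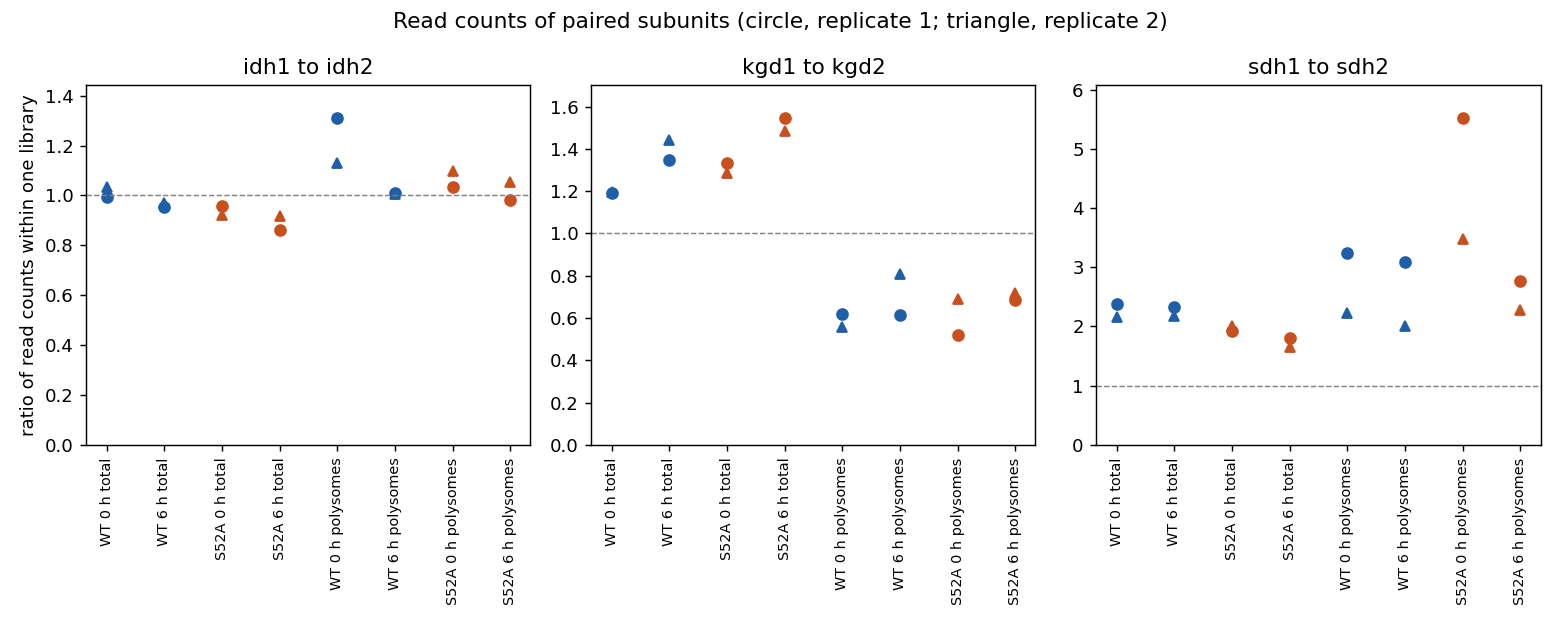
Ratio of read counts of paired subunits (y axes, from 0) in the 16 libraries by group (x axis), WT in blue and eIF2α.S52A in orange. The dashed line marks equal counts, which are not corrected for gene length. The kgd1 to kgd2 ratio lies between 1.19 and 1.55 in total mRNA and between 0.520 and 0.809 on polysomes.

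The members were also compared by sequence, in the RefSeq assembly ASM294v3, in which all 10 matched by locus tag. Promoters were taken as 250 bases before to 50 after the annotated transcript start. CCAAT, the motif bound by the CCAAT-binding complex of Php2, Php3 and Php5, was searched on both strands (CCAAT or ATTGG) and was present in 7 of the 10 members and in 42.3% of 5144 promoters. CCCCTC, a motif of stress and glucose response factors such as Rst2, was searched as CCCCTC or GAGGGG and was present in 3 members, cit1, idh2 and kgd2, and in 2.1% of all promoters. fum1 held neither. The motifs do not overlap each other in letters.

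The 3 members with CCCCTC are shown first because that motif is the rarer one, with the motif in capitals and the strand of the gene. The site begins 74 bases before the transcript start in cit1 (chrI:2327742-2327771, + strand), 151 before it in idh2 (chrII:493818-493847, - strand) and 22 after it in kgd2 (chrII:3208694-3208723, - strand).
cit1: acgtcgcaccctCCCCTCcgttcatgctaa
idh2: tcattccgcttcGAGGGGctttctaaatgg
kgd2: acatacaacaacCCCCTCtagcaataatac
Among the members holding CCAAT, cit1, idh1, sdh1 and sdh2 were called in neither WT fraction. Of the 4 members called in both WT fractions, aco1, kgd1 and dld1 hold CCAAT, and 1 site of each is shown with CCAAT in capitals. It begins 79 bases before the transcript start in aco1 (chrI:3051526-3051554, - strand), 208 before it in kgd1 (chrII:1878844-1878872, + strand) and 168 before it in dld1 (chrI:1813892-1813920, - strand).
aco1: gatgatatccttCCAATcggagtgtagat
kgd1: agttcaatacgtCCAATtatcaacagtta
dld1: ttgtacggagggCCAATatcaactttgct

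The members holding CCCCTC had log2 fold changes on WT polysomes of 0.93 (cit1), 1.18 (idh2) and 0.48 (kgd2), so they included both the largest and the smallest of the 10. The annotated 5′ leaders were short in most members: 12 to 154 bases in 9 of them, beside a median of 97 over 4512 genes. The kgd1 leader of 1675 bases held 15 ATG triplets, each followed by an in-frame stop before the start codon. idh1 and idh2 held 1 each, so 3 of 10 members had an upstream ATG, beside 36.3% of all leaders. The ATG of idh2 had an in-frame stop before the start codon, and that of idh1 had none. The Idh1 and Idh2 proteins, of 356 and 379 residues, are identical at 42.6% of aligned positions, and the longest run their coding sequences share is 12 bases, well short of a read.

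Other genes of the cycle did not pass the test in this model. Of the 4 described (mdh1, sdh3, lsc1 and sdh4, which the table describes as an import subunit, Tim18), none passed in any of the 4 comparisons with time, with 3 of 4 above 0 on WT polysomes and a median of 0.55. mdh1, malate dehydrogenase, had large but variable values: 641.0 and 373.8 CPM on WT polysomes at 0 h against 2061.8 and 1142.8 at 6 h (1.66 ± 0.59 on the log2 scale, edgeR adjusted p = 0.0698). In WT total mRNA its replicates were close, 214.6 and 196.2 CPM against 592.4 and 600.9 (1.54 ± 0.58, edgeR adjusted p = 0.102). That SE uses the spread of mdh1 over all 8 groups, not that of these WT libraries. On eIF2α.S52A polysomes at 6 h mdh1 stood at 1155.3 and 283.2 CPM. Over the settings tried the adjusted p of mdh1 ran from 0.0108 to 0.284 on WT polysomes, where library size alone, the replicate block, DESeq2 and only the groups compared called it, and from 0.00384 to 0.358 in WT total mRNA, where the last 3 did.

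10 listed genes feed the cycle or act beside it: pyruvate dehydrogenase subunits, the mitochondrial pyruvate carrier, pyruvate carboxylase, malic enzyme, idp1 and gdh2. Of these, 1 was called in each of the 4 comparisons with time, and each time it was gdh2. The shares of all genes called higher were 8.57% and 3.4% on WT and eIF2α.S52A polysomes. In total mRNA they were 6% and 2.12%. gdh2 encodes NAD-dependent glutamate dehydrogenase, which returns 2-oxoglutarate to the cycle. It stood at 8.3 and 4.8 CPM on WT polysomes at 0 h and 47.3 and 44.7 at 6 h, a log2 fold change of 2.85 ± 0.26 (adjusted p = 0.000253, edgeR). On eIF2α.S52A polysomes it went from 15.9 and 18.5 to 45.7 and 41.8 CPM (1.34 ± 0.24, edgeR adjusted p = 0.0120). The strain difference of these changes, -1.51 ± 0.35, was not called (adjusted p = 0.428, edgeR). DESeq2 called it, and over the settings tried its adjusted p ran from 0.0355 to 0.997. On polysomes at 6 h the gdh2 values of the 2 strains overlapped. At 0 h both eIF2α.S52A polysome libraries lay above both WT ones, a difference that was not called. In total mRNA gdh2 rose by 2.09 ± 0.24 in WT and 1.35 ± 0.23 in eIF2α.S52A cells (edgeR adjusted p of 0.00144 and 0.0139). In eIF2α.S52A cells the calls of gdh2 were lost with only the groups compared in either fraction, on polysomes also without replicate 1 at 0 h or at 6 h (adjusted p up to 0.126), and in total mRNA also without either 0 h replicate or replicate 1 at 6 h (adjusted p up to 0.154).

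Of 6 transcription factor genes tied to respiratory or glucose-regulated genes (php2, php3, php4, php5, scr1 and rst2), in this model none was called in WT. On eIF2α.S52A polysomes, where 3.4% of all genes were called higher, 1 of the 6 was, rst2. It went there from 27.0 and 34.0 CPM to 48.7 and 60.4 (0.83 ± 0.21 on the log2 scale, edgeR adjusted p = 0.0366). On WT polysomes it stood at 40.0 and 51.4 CPM at 0 h and 59.3 and 78.4 at 6 h (0.59 ± 0.20, edgeR adjusted p = 0.0631). The calls of rst2 turned on the setting: on eIF2α.S52A polysomes its adjusted p ran from 0.00386 to 0.301 and the call was lost without any 1 of the 4 libraries or with only the groups compared, and on WT polysomes it ran from 0.00659 to 0.295 and library size alone, the replicate block and DESeq2 called it. In WT total mRNA it was called with only the groups compared (adjusted p = 0.0302, edgeR), in a range of 0.0302 to 0.403.

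The genes outside the list whose log2 CPM followed the members' mean most closely over the 16 libraries, among 5111 candidates, were aif1 (r = 0.97), SPBC106.03 (0.96), SPAC16C9.01c (0.96), aap1 (0.96) and isp6 (0.95). The table describes aif1 as a homologue of an apoptosis-inducing factor, SPAC16C9.01c as a carbohydrate kinase, aap1 as an aspartyl metalloaminopeptidase and isp6 as a vacuolar serine protease. Among the members themselves r with this mean ran from 0.61 for kgd1 to 0.98 for idh2.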

How the data were processed

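The deposited counts were used: per the study's methods the authors aligned paired reads from a stranded kit to ASM294v2 with STAR and assigned them to genes by strand with QoRTs, and they deposited raw counts per gene for 16 libraries beside DESeq2-normalized counts, which were not used here. No column of the authors' own comparisons was used. Genes with low counts were removed with filterByExpr, libraries were scaled by TMM, and 1 edgeR model of 8 groups (edgeR 4.0.16, R 4.3.3; common dispersion 0.0585, 8 residual degrees of freedom) gave 13 contrasts by quasi-likelihood F-test, adjusted by Benjamini-Hochberg over 6170 genes. SE is the log2 fold change over the root of F. The spread of a gene was estimated over all 8 groups. An SE or p beside WT values therefore also reflects the eIF2α.S52A libraries. Plotted and per-replicate log2 CPM used a prior count of 1. The code was also run on counts simulated from the fitted model with independent libraries. That run cannot show how the test behaves where libraries share an experiment. Groups of 2 cannot give an exact permutation p under 0.05, so none was run.

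The labels name replicates by experiment, which pairs the libraries. Deviations of libraries with the same number correlated at -0.09 to 0.58 (median 0.26) over 28 pairs of groups, above 0.1 in 22. The model has no block because the study's has none. The main counts therefore leave this pairing out, and the counts with the block are given beside them. Alternatives were RLE scaling, library size alone, no filter, DESeq2 1.42.0, the replicate block, only the groups compared and each library left out. Of 6985 genes with an accession 44 carry an ID that differs from it. No member is among them, and lsc2 was left out for this reason. The gene named lsc1 was matched by its ID, since the table uses that symbol for another gene. A gene of the lists is not reported here.

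Named were the 10 members and genes of 3 further lists (other cycle genes, genes feeding or beside the cycle, regulators). Also named were the 5 genes with the highest Pearson r to the members' mean at a mean log2 CPM of at least 2. plh1, rmn1 and SPBC3H7.02 were named after their values were seen. The members and lists were chosen with earlier results of these data known. Sequences come from RefSeq ASM294v3.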

Additional observations from a re-analysis of the deposited data

How the results depend on the processing

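On WT polysomes, where 5 members were called, library size alone gave 10, the replicate block 9, DESeq2 7, only the groups compared 6 and leaving out 1 library 0 to 1. On eIF2α.S52A polysomes, where 0 were called, library size alone gave 8, the replicate block 1, DESeq2 1 and leaving out 1 library 0 to 1. In WT total mRNA, where 4 were called, RLE scaling gave 0, library size alone 7, no filter 1, the replicate block 7, only the groups compared 7, DESeq2 6, and leaving out 1 library 0 each time. In the other 10 comparisons every setting run gave 0, the block included. A group left with 1 library was assumed to vary like the others, and the cause of these shifts was not tested, other than that library size alone moved the median of all genes by 0.51 on WT polysomes, 0.59 on eIF2α.S52A polysomes and 0.22 in WT total mRNA.

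The polysome and total mRNA changes of the members, gdh2, mdh1 and rst2 in WT cells kept their sign under every setting run. Those that turned sign were uncalled changes in eIF2α.S52A cells. On polysomes sdh1 was 0.48 with library size alone. In total mRNA dld1 was -0.0036 with RLE, -0.0103 with the replicate block and -0.0029 with DESeq2, and sdh2 was -0.0031 with RLE and -0.0024 with DESeq2. Leaving out 1 library, the mutant's polysome changes ran from -0.0378 to 0.61 for idh1, -0.0257 to 0.73 for idh2, -0.0337 to 0.59 for dld1, -0.53 to 0.33 for sdh1, -0.12 to 0.18 for fum1 and -0.74 to 1.29 for mdh1. Its total mRNA changes ran from -0.21 to 0.79 for idh1, -0.17 to 0.92 for idh2, -0.26 to 0.24 for dld1, -0.47 to 0.0869 for sdh1, -0.22 to 0.26 for sdh2, -0.0774 to 0.45 for fum1 and -0.0635 to 0.99 for mdh1. The alternatives for gdh2, mdh1 and rst2 were added after seeing the data. With 2 libraries a group, the precision for the members is limited by replicates, not by depth. The counting error of the other named genes, such as gdh2, was not computed.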
